A study of Oryza sativa Indica Group with 4 samples.

Results

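Leaf blades of togr1-1 and wild-type rice seedlings grown at 25 °C, the cooler of the study's growth temperatures, were compared by RNA sequencing. This comparison uses 2 of the 4 libraries of the series, namely the wild type at 25 °C and togr1-1 at 25 °C, with 1 library per genotype. The remaining pair, 1 library of each genotype at 30 °C, shares no library with it and is given beside the results. The wild type is the indica variety Zhongxian 3037, and togr1-1, written tog1 in the labels, is a spontaneous recessive mutant isolated from it that grows as a dwarf in the heat. Backcrossing of the mutant to the variety is not stated in the sources used here. Seedlings of both genotypes, 4 days old at the start, spent 18 days in chambers with 12 h of light per day and 80% humidity and were sampled as 22-day-old seedlings. For each library the blades of the fourth leaves were pooled into 100 mg of tissue. A pool averages over plants, so the spread between plants was not measured and no difference below has a replicate check.

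TOGR1 encodes a DEAD-box RNA helicase of the nucleolus. Such helicases use ATP to open short RNA duplexes, and those of the nucleolus assist the folding and cutting of the long pre-rRNA from which ribosomal RNAs are made. The yeast helicase Rrp3 acts in the same step, in the maturation of the small ribosomal subunit. The libraries were made from poly(A) RNA, so they measured mRNA and not the pre-rRNA itself.

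The deposited tables give the reads counted on each transcript model, that is on each annotated splice form of a locus. At 25 °C the reads of the wild type summed to 12217702 and those of togr1-1 to 12371522, and the 4 libraries ranged from 11959859 to 12371522. In the wild-type library 29960 models had a read and in that of togr1-1 29483, and the most abundant model took 3.73% and 4.11% of the reads. The identifiers are not paired with gene names or descriptions in the files, and 0 of 28458 loci matched the gene table used as reference. The leaf identity of the pools was therefore not checked against marker genes, and gene groups by function are not analysed here. Genes are named where the study itself names the locus.

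The locus that carries the mutation was examined first. Over its 2 models, TOGR1 (LOC_Os03g46610, on chromosome 3) had at 25 °C 175 wild-type and 127 togr1-1 reads, and at 30 °C 180 and 156. The togr1-1 library was the lower one at both temperatures. At 25 °C the wild type had 1.40 times the scaled reads of togr1-1, where scaled reads are reads divided by the library total. The log2 ratio of togr1-1 over the wild type was -0.48, with a 95% Clopper-Pearson interval from -0.82 to -0.14. At 30 °C the log2 ratio was -0.23 (-0.55 to 0.09), an interval that includes equality. These intervals cover counting error only, as do all others given here. Nearly all TOGR1 reads fell on model LOC_Os03g46610.1, with 171 in the wild type and 123 in togr1-1 at 25 °C. In RPKM, which divides reads by transcript length and library size, this model stood at 7.69 and 5.47. Model LOC_Os03g46610.2 had 4 reads in each of the 25 °C libraries. Because togr1-1 carries an amino acid substitution and not a deletion, the number of TOGR1 reads does not tell the genotypes apart. The counts hold no sequence, so the mutated base was not examined.

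The study also names 3 stress-related loci. LOC_Os07g49400 is given as the homologue of Arabidopsis APX2, an ascorbate peroxidase, an enzyme that removes hydrogen peroxide. It had 255 reads in the wild type and 336 in togr1-1 at 25 °C, 1.30-fold more after scaling (log2 ratio 0.38, 0.14 to 0.62). At 30 °C it had 199 and 164 reads (log2 ratio -0.30, -0.61 to 0.01), so the sign of the ratio differed between the temperatures. Its models were not alike at 30 °C. LOC_Os07g49400.3 had 195 and 142 reads (log2 ratio -0.48, -0.80 to -0.16) and LOC_Os07g49400.4 had 4 and 16 (1.98, 0.35 to 4.02). LOC_Os03g20120 and LOC_Os07g48830 are given as homologues of Arabidopsis GolS2, a galactinol synthase, which makes the galactosyl donor for raffinose-type sugars. LOC_Os03g20120 had 380 reads in the wild type and 615 in togr1-1 at 25 °C, 1.60-fold more (log2 ratio 0.68, 0.49 to 0.86). At 30 °C both libraries were lower, with 152 and 279 reads, and togr1-1 was again the higher one, by 1.81-fold (log2 ratio 0.85, 0.56 to 1.15). In RPKM this locus stood at 21.7 and 34.7 at 25 °C. LOC_Os07g48830 had 101 and 110 reads at 25 °C (log2 ratio 0.11, -0.30 to 0.51), a sum that did not differ beyond counting error. Its models went opposite ways at 25 °C. LOC_Os07g48830.1 had 74 wild-type and 99 togr1-1 reads (log2 ratio 0.40, -0.05 to 0.86), and LOC_Os07g48830.2 had 27 and 11 (-1.31, -2.47 to -0.255). At 30 °C the locus had 174 and 95 reads, fewer in togr1-1 (log2 ratio -0.89, -1.27 to -0.53). Summed over their models, none of the 4 named loci reached a 2-fold difference between the genotypes at either temperature.

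**Figure D1:**
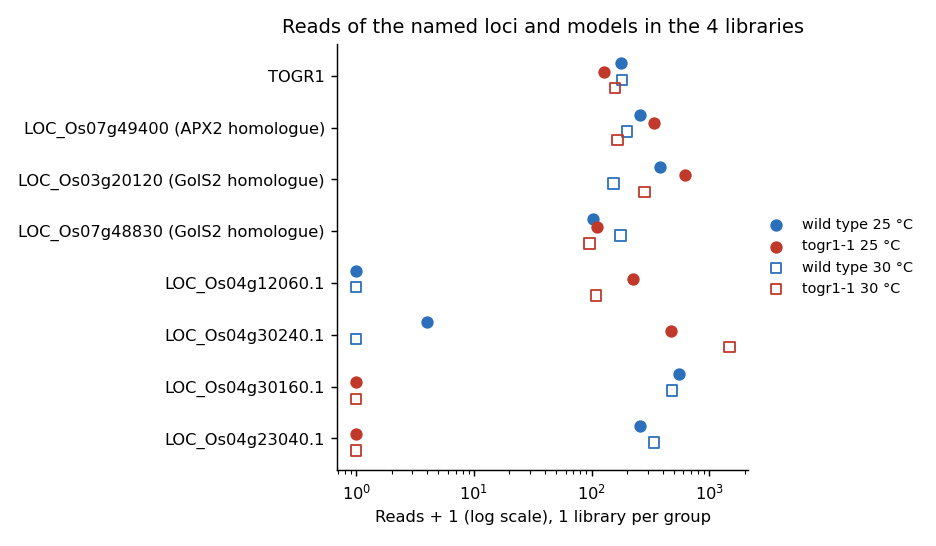
Reads plus 1 (log scale) of the named loci and transcript models in each of the 4 libraries, with filled circles for 25 °C, open squares for 30 °C, blue for the wild type and red for togr1-1. The upper 4 loci have 95 to 615 reads in every library, whereas the lower 4 models are at or near 0 in both libraries of one genotype and at 108 reads or more in both libraries of the other.

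Across the transcriptome the libraries differed in a small share of models. For each of the 32519 models with a read at 25 °C, the division of its reads between the libraries was set against the division of all reads in an exact binomial test (two-sided), and p-values were adjusted over these models after Benjamini and Hochberg. A model was counted as a DEG at an adjusted p of at most 0.001 together with at least a 2-fold difference in scaled reads. As it accounts for counting error alone, the test is one of these libraries and not of the genotypes. By this rule 1338 models (4.11%) of 1315 loci were DEGs. Of these, 486 (1.49% of the models tested) were higher and 852 (2.62%) were lower in togr1-1, so that 63.7% of the DEGs were lower. Most differences were moderate, with a median of 3.14-fold for the higher DEGs and 2.85-fold for the lower ones. At least 4-fold separated 468 DEGs (1.44%), at least 8-fold 259 (0.796%) and at least 32-fold 134 (0.412%). Among the last, 63 were higher and 71 lower in togr1-1. A DEG with 0 reads in either library has no finite ratio and was counted in each of these size classes, whatever its depth. This was so for 114 DEGs, so most of the 134 have no measured ratio. The fewest reads with which a model passed were 14 over the pair, and 52 higher and 62 lower DEGs had 0 reads in one of the libraries.

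**Figure D2:**
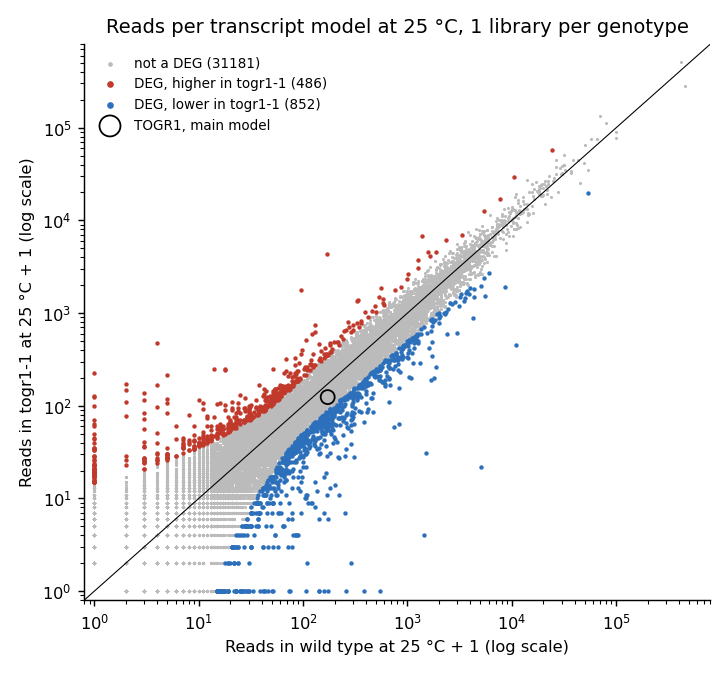
Reads plus 1 per transcript model at 25 °C in togr1-1 (y axis) against the wild type (x axis), both on log scales, with 1 point per model, DEGs in red (486, higher in togr1-1) or blue (852, lower), the main model of TOGR1 ringed and the line of equal reads. Most models lie along the line, and DEGs occur from models with 0 reads in one library up to models with over 10000 reads.

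Of the 13710 models with at least 100 reads over the pair, DEGs included, 93.7% lay within 2-fold, with a median log2 ratio of -0.04 and quartiles of -0.33 and 0.24. The excess of lower DEGs was present at each depth when these models were divided into 5 equal classes by reads. The share lower in togr1-1 was 6.89% in the class with fewest reads and 1.93% in the class with most, against 4.25% and 0.839% higher. It varied with transcript length as well, over 4 equal classes. Of the shortest models, from 156 to 1276 bases, 5.59% were lower and 2.04% higher, and of the longest, from 2482 bases, 2.92% were lower and 2.07% higher. The share higher in togr1-1 thus stayed between 1.72% and 2.07% over these classes while the share lower ranged from 2.92% to 5.59%. The part of transcript length in the number of lower DEGs was not tested.

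The 30 °C libraries were then read for the same models, since they had no part in the choice of the 25 °C DEGs. Between those libraries 1810 of 32450 models (5.58%) were DEGs, and there the higher ones were in the majority, with 1110 (3.42%) against 700 lower (2.16%). In all, 238 models (0.732% of those tested at 25 °C) were DEGs in one direction at both temperatures, 147 of them higher (0.452%) and 91 lower (0.28%) in togr1-1. Of the 486 higher DEGs at 25 °C, these 147 (30.2%) were also higher at 30 °C and 16 (3.29%) were lower. Of the 852 lower DEGs, the 91 (10.7%) were also lower at 30 °C and 83 (9.74%) were higher. The lower DEGs at 25 °C were thus DEGs at 30 °C in either direction at similar shares, but the directions were not equally common there. Over all models tested at 25 °C, 1099 were higher and 695 lower DEGs at 30 °C. By sign alone, 522 of the 833 lower DEGs with a read at 30 °C (62.7%) kept their direction. Of the 486 higher DEGs, 328 (67.5%) did so. The share of each sign over all models was not counted. Their median log2 ratio at 30 °C, given below, was slightly negative, so these shares have unlike backgrounds. The median log2 ratio at 30 °C was 0.53 (quartiles -0.19 and 1.9) for the 486 higher DEGs and -0.25 (-0.69 and 0.36) for the 833 lower ones with a read at 30 °C. For the 29765 models tested at 25 °C with a read at 30 °C it was -0.07 (-0.51 and 0.45).

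Among the higher DEGs, the share that was also higher at 30 °C rose with the size of the difference at 25 °C. It was 19.5% of the 302 models that differed 2- to 4-fold, 35.4% of the 82 that differed 4- to 8-fold and 57.8% of the 102 beyond 8-fold. The class beyond 8-fold includes every DEG with 0 reads in either 25 °C library, whatever its depth. These were 52 of the higher and 62 of the lower DEGs. For the 102 models the median log2 ratio at 30 °C was 3.4 and 0 were lower DEGs there. Among the lower DEGs the corresponding shares were 7.39% of 568, 15.0% of 127 and 19.1% of 157. Of the 157 lower DEGs beyond 8-fold, 30 were lower and 12 (7.64%) higher DEGs at 30 °C. The 141 of them with a read at 30 °C had a median log2 ratio of -0.02 there, with quartiles of -1.9 and 1.6.

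**Figure D3:**
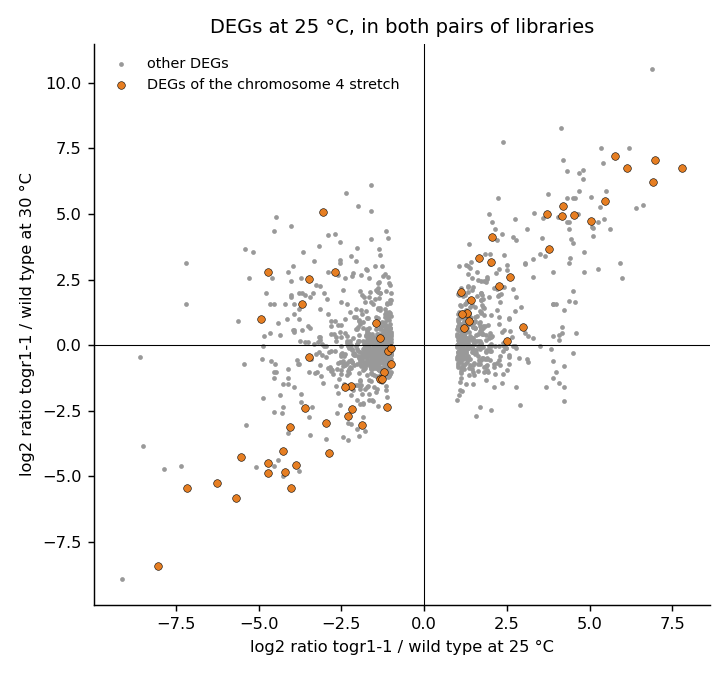
Log2 ratio of togr1-1 over the wild type at 30 °C (y axis) against that at 25 °C (x axis) for each 25 °C DEG with a read at 30 °C, in orange for the DEGs of chromosome 4 with locus numbers from 10000 to 29999 and in grey for the others. The 102 higher DEGs beyond 8-fold have a median log2 ratio of 3.4 at 30 °C, whereas the lower DEGs spread to both sides of 0, and 44 of the 61 orange models are DEGs in one direction at both temperatures.

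To see which library carried a difference, the 1338 DEGs were sorted by the order of their scaled reads in the 4 libraries. A library or pair was taken to stand apart when at least 2-fold separated it from the nearest other library. These classes were chosen with the values in view and are a description. In 212 DEGs (0.652% of the models tested) the libraries split by genotype, with both togr1-1 libraries on one side of both wild-type libraries. In 404 (1.24%) the wild type at 25 °C stood apart from the remaining 3 libraries, in 318 (0.978%) togr1-1 at 25 °C did, and 84 DEGs met more than one of these descriptions. None of them was met by 163 of the higher DEGs (33.5%) and 328 of the lower ones (38.5%).

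The classes were unequally filled in the 2 directions. The split by genotype held 143 of the higher DEGs (29.4%) and 69 of the lower ones (8.1%), of which 29 and 26 also belonged to another class. In the 143 higher DEGs the median reads of the wild type were 8 at 25 °C and 5 at 30 °C, and those of togr1-1 were 63 and 83. In 274 lower DEGs (32.2%), of which 33 also belonged to another class, the wild type at 25 °C alone was high. This was the most of any of these classes in either direction. Their median reads were 131 in that library, against 24.5 in togr1-1 at the same temperature, and 21 and 26 in the wild type and togr1-1 at 30 °C. In 225 lower DEGs (26.4%), of which 27 also belonged to another class, togr1-1 at 25 °C alone was low, with median reads of 82 in the wild type and 20 in togr1-1 at 25 °C, and 102 and 91 at 30 °C. For the higher DEGs, the wild type at 25 °C alone was low in 130 (26.7%) and togr1-1 at 25 °C alone was high in 93 (19.1%). Of these, 30 and 26 also belonged to another class. With 1 pool per library, the state of a single pool and an effect of genotype at one temperature cannot be told apart in these classes.

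Transcript models with a large difference at both temperatures are named by rank. Of the DEGs with at least 200 reads over the 25 °C pair, 43 were higher and 38 lower at both temperatures. The models shown are the first 2 in each direction by the log2 ratio at 25 °C with 1 read added to each count. All 4 lie on chromosome 4, and the sources used here give no function for them. LOC_Os04g12060.1, 1596 bases long, had 0 wild-type reads at both temperatures, and in togr1-1 it had 225 reads at 25 °C and 108 at 30 °C. With 3 counts in place of 0, the limit that a count of 0 allows, it was at least 74.1-fold higher in togr1-1 at 25 °C and at least 35.5-fold at 30 °C. LOC_Os04g30240.1, of 2622 bases, had 3 and 0 reads in the wild type and 472 and 1484 in togr1-1. Its ratio at 25 °C was 155-fold (log2 ratio 7.28, interval 5.72 to 9.56), and at 30 °C it was at least 487-fold higher. In both models the genotypes separated fully over the 4 libraries.

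The opposite case was as complete. LOC_Os04g30160.1, of 2649 bases, had 550 wild-type reads at 25 °C and 479 at 30 °C, and 0 in both togr1-1 libraries, at least 186-fold and 162-fold lower. In RPKM it stood at 17.0 and 15.1 in the wild type. LOC_Os04g23040.1, of 1160 bases, had 256 and 336 wild-type reads and 0 in both togr1-1 libraries, at least 86.4-fold and 114-fold lower. LOC_Os04g30160.1 and LOC_Os04g30240.1 are close in identifier order, of like length and read in opposite genotypes. Whether reads pass between near-identical copies was not tested.

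DEGs in one direction at both temperatures were concentrated in a stretch of chromosome 4. In rice locus identifiers of this form, the digits after Os name the chromosome and the number after g rises along it. The share of models that were DEGs at 25 °C differed little between chromosomes, from 3.17% on chromosome 12 to 5.12% on chromosome 4. The share that were DEGs in one direction at both temperatures was 2.04% on chromosome 4, with 59 of 2892 models. On the other chromosomes it ranged from 0.166% on chromosome 9, with 3 of 1811, to 0.985% on chromosome 11, with 18 of 1828. The chromosomes were next divided into windows of 5000 locus numbers. Of 129 windows with at least 50 models, the 4 with the highest shares were the 4 consecutive windows from 10000 to 29999 on chromosome 4, where they were 12.2%, 8.08%, 10.1% and 4.65%. The median window had 0.535%, and 33 windows had 0. Outside these 4 consecutive windows the share on chromosome 4 was 0.626%, with 15 of 2395 models.

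**Figure D4:**
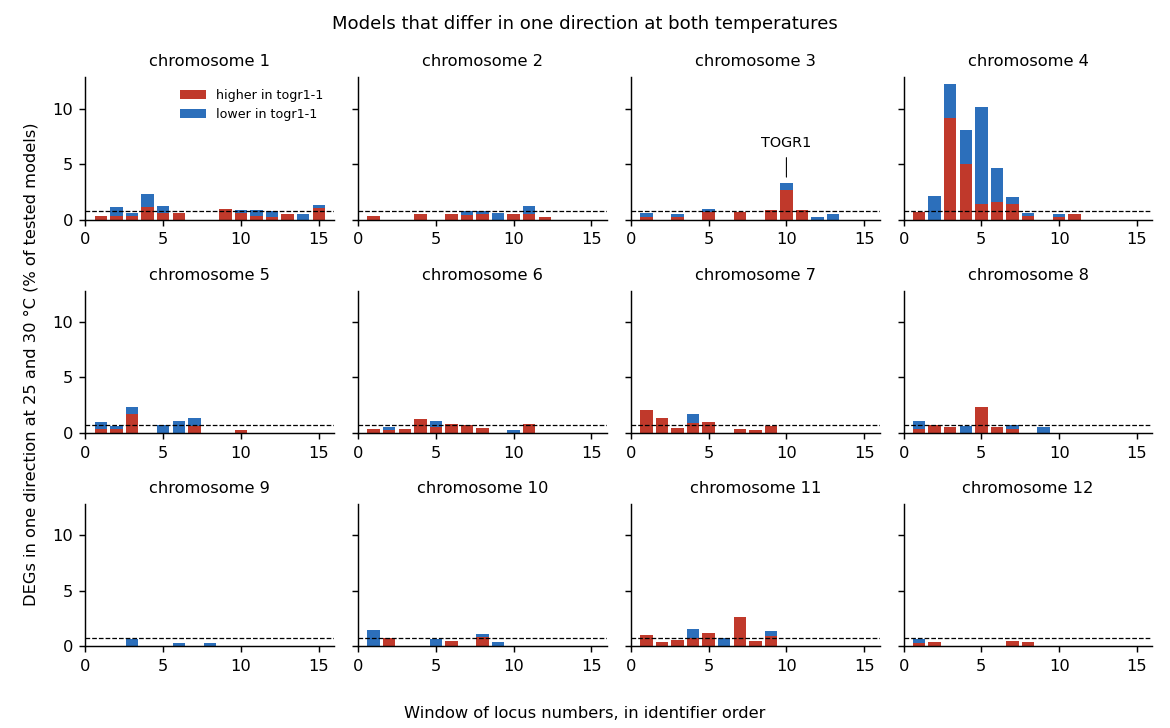
Share of tested transcript models that were DEGs in one direction at 25 and 30 °C (y axis, %) in successive windows of 5000 locus numbers along each of the 12 chromosomes (x axis, window in identifier order), in red for higher and blue for lower in togr1-1, with the share over all models as a dashed line (0.732%). The third to sixth windows of chromosome 4 reach 4.65% to 12.2%, and the window of TOGR1 on chromosome 3, at 3.28%, is the highest outside them.

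The stretch of chromosome 4 from locus number 10000 to 29999 was described further. It was chosen for these shares, so its counts have no test. It held 497 tested models of 442 loci, or 1.53% of all models, and 44 of the 238 DEGs in one direction at both temperatures (18.5%). Both directions were present, with 21 models higher and 23 lower in togr1-1. Of the 61 DEGs at 25 °C in the stretch (12.3% of its models), these 44 made up 72.1%, 3 were DEGs in the opposite direction at 30 °C and 14 were not DEGs there. Elsewhere, outside this stretch and the window of TOGR1, the corresponding share was 14.6%, or 184 of 1257 DEGs. The differences in the stretch were large, with a median log2 ratio of 3.83 in size at 25 °C and 4.11 at 30 °C. Of the 44 models, 26 were beyond 8-fold at 25 °C, out of 89 such models in the whole table. Models with 0 reads in either 25 °C library are included in both counts. Of the 44, 16 had 0 reads in both libraries of one genotype. The reads of the 44 models ranged from 15 to 2129 over the 25 °C pair, with a median of 123.5. With 1 read added to each count, the ratios at 25 and 30 °C were within 2-fold of each other for 30 of the 44. These models were chosen for one direction at both temperatures, which favours like ratios. Where a genotype had 0 reads, the ratio follows the reads of the other genotype and is not a measured one.

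The composition changed along the stretch. In the window from 10000 to 14999, 12 models were higher and 4 lower in togr1-1, and in the next window 5 were higher and 3 lower. From 20000 to 24999 the order was inverted, with 2 higher and 12 lower, and from 25000 to 29999 there were 2 higher and 4 lower. A further 6 models lay in the following window, with locus numbers up to 30310, and include LOC_Os04g30160.1 and LOC_Os04g30240.1. Across the 219 models of the stretch with at least 100 reads over the 4 libraries, DEGs or not, Pearson's r between the log2 ratios at 25 and 30 °C was 0.806 and Spearman's rho was 0.531. On the rest of chromosome 4 they were 0.385 and 0.149 over 1256 models, and elsewhere 0.217 and 0.165 over 16588. These are correlations across transcripts, which share their libraries and are not independent. The stretch was chosen for models that differed in one direction at both temperatures. Such models with enough reads are among the 219, so higher correlations there follow in part from the choice. Of the 219 models, 24.2% differed at least 2-fold at 25 °C and 24.7% at 30 °C, against 8.69% and 10.1% elsewhere. The choice of the stretch bears on these shares as well.

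Outside this stretch, the window with the highest share was the one that contains TOGR1, from 45000 to 49999 on chromosome 3. It held 10 DEGs in one direction at both temperatures among 305 models (3.28%), with 8 higher and 2 lower in togr1-1, and the next window outside the stretch had 2.63%. They were drawn from 20 DEGs that the window held at 25 °C, of which 0 were DEGs in the opposite direction at 30 °C. On the rest of chromosome 3 the share was 0.42%, with 16 of 3805 models. TOGR1 itself was not a DEG, and the 10 models did not adjoin it, with 19 read loci between TOGR1 and the nearest of them before it and 18 between TOGR1 and the nearest after it. Of the 10, 3 lay before TOGR1 and 7 after it, and 5 were among the next 30 read loci after the nearest of them past TOGR1. Their log2 ratios at 25 °C ranged from -1.59 to 5.44, with a median size of 2.17 at 25 °C and 3.15 at 30 °C. Over the 172 models of the window with at least 100 reads in all, Pearson's r between the temperatures was 0.696 and Spearman's rho 0.231, so that the ranks of most models were only weakly related. Adjacent loci were also counted directly. DEGs called on reads summed per locus formed 17 runs of at least 3 adjacent read loci at 25 °C, of which 7 were on chromosome 4, and the longest held 5 loci. For the 233 loci (0.879%) that differed in one direction at both temperatures there were 5 such runs, 3 of them on chromosome 4, 1 on chromosome 3 and 1 on chromosome 11.

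Loci read in one genotype alone at 25 °C were counted with at least 50 reads in one library and at most 3 in the other. There were 45 such loci (0.17% of 26499). In togr1-1 alone 20 were read, with 50 to 472 reads and a median of 104, and 7 of them had 0 wild-type reads. Of the 20, 11 were again read in togr1-1 alone at 30 °C by the same limits, and 6 had more than 3 wild-type reads there. In the wild type alone 25 were read, with 51 to 1433 reads and a median of 86, and 11 of them had 0 reads in togr1-1. At 30 °C, 5 of the 25 were again read in the wild type alone, and 8 had at most 3 reads in both genotypes. A further 8 had more than 3 togr1-1 reads there. The stretch of chromosome 4 held 5 of the 20 loci, all 5 of them again read in togr1-1 alone at 30 °C, and 5 of the 25, of which 2 were again read in the wild type alone.

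The reads were also summed over the models of each locus. At this level 1210 of 26499 loci (4.57%) were DEGs, with 406 higher (1.53%) and 804 lower (3.03%) in togr1-1. At 30 °C 1665 loci (6.3%) were DEGs, with 1061 higher (4.01%) and 604 lower (2.28%). Of the 1315 loci with a model that was a DEG, 1169 were also DEGs as loci and 146 were not, while 41 loci were DEGs only as a sum. A single locus had models that were DEGs in both directions. The share of a locus taken by each of its models was compared on reads with Fisher's exact test (two-sided) and the same adjustment. It was called where the adjusted p was at most 0.001 and the share differed by at least 20 percentage points. This was so for 58 of 5784 models (1%) of 39 loci, with a median difference of 26.7 percentage points and a largest of 52.0. Of these loci, 1 was a DEG in its summed reads. For 56 of the 58 models the locus also had at least 50 reads in each 30 °C library, the minimum used at 25 °C. The difference had the same sign in 29 of the 56, reached 20 percentage points with that sign in 5 and with the opposite sign in 0. Such a difference in model use at 25 °C thus had the same sign at 30 °C in about as many models as not. In the stretch of chromosome 4, 0 of 59 models tested differed in model use.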

How the data were processed

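Poly(A) RNA was sequenced on the Illumina HiSeq 2000 by BGI. The authors deposited raw read counts per transcript model and RPKM, which were recalculated here from counts, lengths and column sums to within 4.91e-06%. The aligner, genome build and annotation are not given in the sources used here. The authors' own columns (log2 ratio, p-value and FDR of their temperature comparison) were not used.

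The 25 °C columns of the 2 tables were joined by identifier, and a model absent from a table was given 0 reads. Counts were scaled by column totals. With 1 library per group edgeR's quasi-likelihood test could not be fitted, and the exact tests given with the results were used instead, treating each read as an independent count. Log2 ratios for ranking and medians used a pseudocount of 1 read. Intervals are 95% Clopper-Pearson intervals. Depth was about equal between the libraries, and 14 reads were the fewest of a DEG. The tests were checked on simulated data with counting error alone, so the check does not cover spread between pools. The named transcripts are the loci the study names and, as the identifiers carry no names, the first 2 in each direction by log2 ratio among DEGs with at least 200 reads that differed in the same direction at 30 °C. The members, lists and tests were chosen with earlier results of these data known, and the windows, stretches and classes after their values had been seen. Lists of genes by description, cell type markers and sequences were left out, as descriptions and sequences for these identifiers are not used here. Reads shared between near-identical, overlapping or antisense genes may have been misassigned by the counting.

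Alternatives were TMM factors, DESeq2 size factors, other thresholds, filters, a thinned library, another pseudocount and edgeR's exact test with an assumed coefficient of variation. Versions were Python 3.11.15, numpy 2.4.6, scipy 1.17.1, pandas 2.3.3, matplotlib 3.10.9, R 4.3.3, edgeR 4.0.16 and DESeq2 1.42.0.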

Additional observations from a re-analysis of the deposited data

Results flagged for a closer look

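Some DEGs between the genotypes at 25 °C were DEGs in the opposite direction at 30 °C, a difference between the temperatures under the same contrast. Of the 32519 models tested at 25 °C, 83 were lower in togr1-1 at 25 °C and higher at 30 °C, or 9.74% of the lower DEGs at 25 °C. Their median reads were 156 in the wild type and 48 in togr1-1 at 25 °C, and 36 and 147 at 30 °C, with median log2 ratios of -1.6 and 2.24. A further 16 models, or 3.29% of the higher DEGs at 25 °C, were higher in togr1-1 at 25 °C and lower at 30 °C. Their median reads were 39.5 and 97.5 at 25 °C, and 102 and 33.5 at 30 °C, with median log2 ratios of 1.37 and -1.54. At 30 °C higher DEGs were the more common in general, with 1110 against 700 lower. The models were chosen for opposite calls on these reads, which fixes the outcome of any test of the difference on the same reads, so the difference was not tested.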

How the results depend on the processing

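No paired analysis was possible because each group had 1 library and no replicate number, and for the same reason no library could be left out. The number of DEGs at 25 °C, 1338, depended on the thresholds. It was 468 with a 4-fold difference, 2642 with an adjusted p of at most 0.05, and 9390 with a 2-fold difference alone. With a coefficient of variation of 0.2 assumed between pools, edgeR's exact test gave 517 models (183 higher and 334 lower in togr1-1) at an adjusted p of at most 0.05, and with 0.4 it gave 74 (33 and 41). The lower DEGs were in the majority under each of these settings. TMM factors shifted the log2 ratios of models at 25 °C by 0.03 and gave 1321 DEGs, of which 531 were higher and 790 lower (40.2% higher, against 36.3%). The DEGs in one direction at both temperatures fell from 238 to 137 with a 4-fold difference at 25 °C. The loci read in one genotype alone numbered 76 with at least 20 reads in one library and at most 1 in the other, and 3 loci, against 39, held a model whose share differed by at least 40 percentage points. With 4-fold in place of 2-fold between libraries, an alternative chosen after the data were seen, 105 DEGs split by genotype, the wild type at 25 °C stood apart in 120 and togr1-1 at 25 °C in 59. The stretch of chromosome 4 held 40 to 44 and the window of TOGR1 9 to 10 models or loci in one direction at both temperatures under TMM factors, a filter of 20 reads and sums per locus. In all, 32 alternatives left a value within 1.5 times its first value, or a log2 ratio within its interval, and 11 did not. The tally is no measure of robustness, as some alternatives could hardly move their value. The smaller pseudocount could not change the number of DEGs, since the calls use none. The shifts in the log2 ratios of the named loci were small beside their intervals. The limit throughout is that counting error is the only error measured.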
